A study of Rattus norvegicus with 24 samples.

Results

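Ascorbic acid was given to irradiated rat neurospheres (NSps), and the transcriptome of these cultures was compared with that of NSps irradiated without it. NSps are floating spheres that neural progenitor cells form in culture, here from the fetal brain of Sprague Dawley rats. The comparison covers 8 of the 24 RNA-seq samples of the study, chosen by treatment. They are 4 samples that received 200 µM ascorbic acid and 1 Gy of X-rays (AGy, samples MO21 to MO24) and 4 that received 1 Gy alone (CGy, samples MO13, MO14B, MO15 and MO16). All 8 were irradiated on day 3 after seeding, and the ascorbic acid was in the medium both before and after the exposure. The other 4 groups of 4 samples each were untreated NSps (C), NSps with 200 µM ascorbic acid and no radiation (A), and NSps with 5 µM Noggin, a secreted inhibitor of BMP signaling, without radiation (N) or with 1 Gy (NGy). One C sample, MO2, was removed by the study as an outlier. It is in the uncorrected table and not in the batch-corrected one, and values of C are given without it unless stated. The cells were a primary culture, and nothing in the labels says whether the samples of a group came from separate animals or litters, so the p-values measure only the spread between these samples.

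Neural progenitor cells divide and give rise to neurons, astrocytes and oligodendrocytes, and ionizing radiation is known to kill them or to push them out of division. Ascorbic acid (vitamin C) is a water-soluble scavenger of reactive oxygen species, which radiation produces in cells, and it is also a cofactor of dioxygenases, among them the enzymes that hydroxylate collagen and the TET enzymes that oxidize methylated DNA. The comparison of AGy with CGy asks which transcripts differ when the radiation dose is the same and the ascorbic acid is not.

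The tables list genes by rat Ensembl identifier only, and 0 of their identifiers could be paired with a symbol from the files or the reference tables used here. The label of neural progenitor cell was therefore not checked against marker genes, and 24 prepared lists with 536 symbols of pathways and cell types were not applied. Results are described over all genes, and 4 genes are given by identifier.

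Genes differed in both directions between AGy and CGy, and neither direction was the more frequent in every setting. Of 16478 genes listed, 9847 had a mean of at least 1 TPM (a transcript abundance corrected for gene length and for the size of the library) in either group and were tested with limma on log2(TPM + 1), and 632 (6.42%) were called at a Benjamini-Hochberg adjusted p of at most 0.05 and a change of at least 1.5-fold. Of these, 334 genes (3.39% of those tested) were higher in AGy and 298 (3.03%) were lower. Among the genes with a mean of 1 TPM or more in both groups the counts were 272 and 278, and without MO22 or MO24 they were 272 against 329 and 253 against 300 over all tested genes. An adjusted p of at most 0.05 without the fold threshold was reached by 1217 genes, of which 589 were higher and 628 lower. The median difference over all tested genes was -0.02 on the log2 scale, and -0.05 with every sample scaled to the same sum. TPM are relative to the total of a sample, so this median depends on the scaling. It does not show that rises and falls were balanced, and it does not measure how far single transcripts differed. The root mean square log2 difference between the group means was 0.373 over the tested genes.

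The median rise of the called genes was somewhat larger than their median fall, but the sets differ in how their genes passed the filter. The median log2 difference of the 334 higher genes was 0.87, with a range of 0.59 to 2.46 and a median standard error (SE) of 0.18 across genes. The 298 lower genes had a median log2 difference of -0.76, with a range of -0.59 to -2.13 and a median SE of 0.16. At least a 2-fold change was seen for 107 of the higher genes and 61 of the lower genes, and at least a 4-fold change for 6 and 1 genes. The higher set holds 62 genes that passed the filter through AGy alone, and the lower set 20 that passed through CGy alone. Such genes had to differ, and sizes without them were not compared. The medians and fold counts are therefore not evidence that rises were larger than falls. Adding 1 TPM before taking the logarithm makes these folds smaller than the ratios of TPM, most of all for weakly expressed genes.

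**Figure D1:**
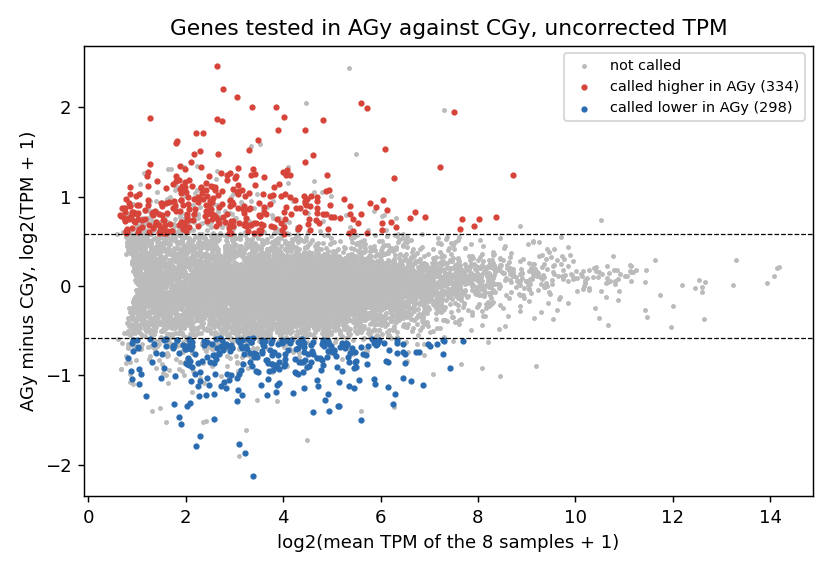
Difference between AGy and CGy on the log2(TPM + 1) scale for each of the 9847 tested genes, against the log2 of the mean TPM over the 8 samples plus 1; dashed lines mark 1.5-fold. The 334 genes called higher (red) spread upward to 2.46 and the 298 called lower (blue) downward to -2.13, and most of the called genes lie in the left part of the plot, at low to moderate levels.

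Called genes were mostly of low to moderate abundance. In CGy the median gene of the higher set had a mean of 3.34 TPM, against 7.78 TPM in AGy. For the lower set the medians were 15.8 TPM in CGy and 8.40 TPM in AGy. A gene called higher is low in CGy by choice, and the AGy medians of the sets were close. Among the 1097 tested genes with a mean under 2 TPM over the 8 samples, 92 (8.39%) were called, of which 71 were higher and 21 lower. The share called was 9.99% of the 2672 genes between 2 and 10 TPM, with 154 higher and 113 lower. It was 5.16% of the 4089 genes between 10 and 50 TPM, where the balance turned to 86 higher and 125 lower. Among the 1580 genes between 50 and 200 TPM, 56 (3.54%) were called, 18 higher and 38 lower, and at 200 TPM and above 6 of 409 (1.47%) were called, 5 of them higher. The split of directions under 2 TPM rests largely on genes that reached the filter in 1 group only.

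Some calls were of genes close to the filter. Of the tested genes, 9351 had a mean of at least 1 TPM in both groups, and 272 of these were called higher and 278 lower. Among them only 14 of 610 genes under 2 TPM were called, 11 higher and 3 lower, whereas between 2 and 10 TPM 152 were higher and 111 lower, and the counts at higher levels were those given above. A further 303 genes entered the test through AGy alone and held 62 of the higher calls, and 193 entered through CGy alone and held 20 of the lower calls. A gene that passed through the group in which it is high had to differ, so these 62 and 20 calls are not evidence of a direction. In every CGy sample 42 of the higher genes were under 1 TPM, and in every AGy sample 11 of the lower genes were.

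Nearly all called genes separated the groups sample by sample, which is in part a result of how they were called. All 4 AGy values lay outside the range of the 4 CGy values for 327 of the 334 higher genes and 292 of the 298 lower genes. Over all tested genes 2321 (23.6%) had groups that did not overlap, 1118 with AGy above and 1203 with AGy below. The smallest adjusted p of the comparison was 0.00639 (limma), for a gene with a mean of 6.12 ± 0.868 TPM in AGy and 1.18 ± 0.381 TPM in CGy (SD, n = 4 each), a log2 difference of 1.72 (SE 0.14).

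The largest rise among called genes with groups that did not overlap and a mean of at least 5 TPM in one group was that of ENSRNOG00000004681. Its values in AGy were 11.3, 9.40, 8.32 and 8.35 TPM in MO21 to MO24. In CGy they were 0.116, 2.26, 2.33 and 0.00117 TPM in MO13, MO14B, MO15 and MO16. Each AGy sample was thus above 8 TPM and each CGy sample under 3 TPM, with MO13 and MO16 close to 0. The log2 difference was 2.46 (SE 0.41, adjusted p = 0.0143, limma). Without radiation, ENSRNOG00000004681 did not show this separation. The A samples MO9 to MO12 held 10.4, 7.09, 0.879 and 5.73 TPM and the C samples MO1, MO3 and MO4 held 5.45, 4.49 and 6.84 TPM, a log2 difference of -0.16 for A minus C. The difference between the effects, 2.62 on the log2 scale, did not pass the test (adjusted p = 0.632, limma interaction). In NGy, which shares no sample with AGy or CGy, the values of this gene lay between 0 and 3.22 TPM, in the range of CGy or slightly above it. Low values were also seen without radiation in N, with 3.58, 0.496, 0.0939 and 0.00665 TPM in MO5 to MO8.

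ENSRNOG00000019985 rose next. In AGy its values were 16.1, 8.99, 7.70 and 7.02 TPM in MO21 to MO24, and in CGy they were 3.19, 3.18, 0.199 and 0.265 TPM in MO13, MO14B, MO15 and MO16. The CGy samples formed a pair near 3 TPM and a pair near 0, both under the lowest AGy value. The log2 difference was 2.20 (SE 0.48, adjusted p = 0.0251, limma). The call was lost in 5 of 15 alternative settings, with an adjusted p of 0.0604 without MO15, 0.0676 without MO16, 0.0591 without MO21, 0.0503 without MO23 and 0.0564 with a pseudocount of 0.1. This gene was also high in A, with 19.9, 13.3, 10.4 and 11.1 TPM in MO9 to MO12. In C it held 3.25 TPM in MO1 and 0.850 TPM in MO3 but 12.2 TPM in MO4, so that 1 C sample lay within the range of A, and the log2 difference A minus C was 1.60.

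ENSRNOG00000031171 fell furthest. It was listed at 0 in MO21 and held 5.72, 2.86 and 5.18 TPM in MO22 to MO24, against 8.15, 14.2, 18.1 and 21.0 TPM in MO13, MO14B, MO15 and MO16. The groups did not overlap, but the highest AGy and the lowest CGy value were close. The log2 difference was -2.13 (SE 0.59, adjusted p = 0.0496, limma), just inside the threshold, and this call held in only 5 of the 15 alternative settings. Among the samples without radiation it was listed at 0 in MO9 of A and held 5.96, 5.25 and 7.73 TPM in the other A samples, and in C it held 10.1 and 11.1 TPM in MO1 and MO3 and was near 0 in MO4.

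ENSRNOG00000005101 had the next largest fall. In AGy it held 0.244, 3.67, 3.99 and 6.17 TPM in MO21 to MO24, and in CGy 12.3, 10.3, 16.4 and 13.2 TPM in MO13, MO14B, MO15 and MO16, so every CGy sample was above 10 TPM. Its log2 difference was -1.87 (SE 0.48, adjusted p = 0.0409, limma), a call that also held in 5 of 15 alternative settings. Its values in A were 0.958, 0.445 and 0.229 TPM in MO9 to MO11 but 9.54 TPM in MO12, and in C 7.87, 11.99 and 0.421 TPM in MO1, MO3 and MO4.

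**Figure D2:**
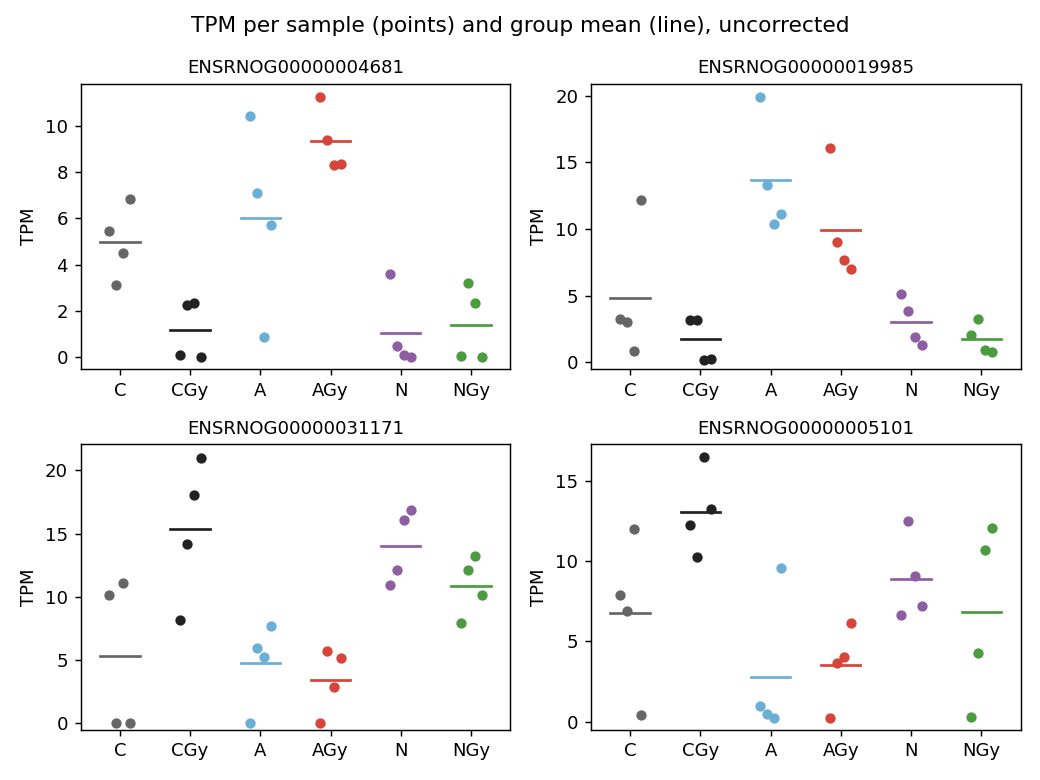
TPM in each sample (points) and the group mean (line) of the 4 genes given by identifier, in the 6 groups, with C shown including MO2. For the genes in the upper row each AGy sample lies above each CGy sample, and for those in the lower row each AGy sample lies below; values in C and A spread over most of the scale for several of these genes.

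Samples of the same group also differed from each other. Over the tested genes, the root mean square log2 difference of an AGy sample from a CGy sample was 0.503 on average over 16 pairs, with a range of 0.391 to 0.637. Pairs within AGy differed by 0.380 on average (0.314 to 0.433, 6 pairs) and pairs within CGy by 0.410 (0.319 to 0.483, 6 pairs), so the ranges overlap. MO21 was the AGy sample most unlike CGy, with a mean distance of 0.598 against 0.468 to 0.475 for MO22, MO23 and MO24. Among the CGy samples the mean distance to AGy was 0.444 for MO13, 0.489 for MO14B, 0.537 for MO15 and 0.542 for MO16.

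The same samples were the most extreme for the called genes. MO21 held the value farthest from CGy for 181 of the 334 higher genes and 234 of the 298 lower genes. On the CGy side MO15 was farthest from AGy for 156 and MO16 for 113 of the higher genes, and MO16 for 184 of the lower genes. MO13 was the CGy sample nearest to AGy for 203 of the higher and 146 of the lower genes. As a share of summed TPM, the higher genes took 1.05 to 1.36% in AGy and 0.526 to 0.710% in CGy. The lower genes took 0.604 to 0.897% in AGy and 1.31 to 1.62% in CGy. These ranges are set by the choice of the genes and describe their size only.

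**Figure D3:**
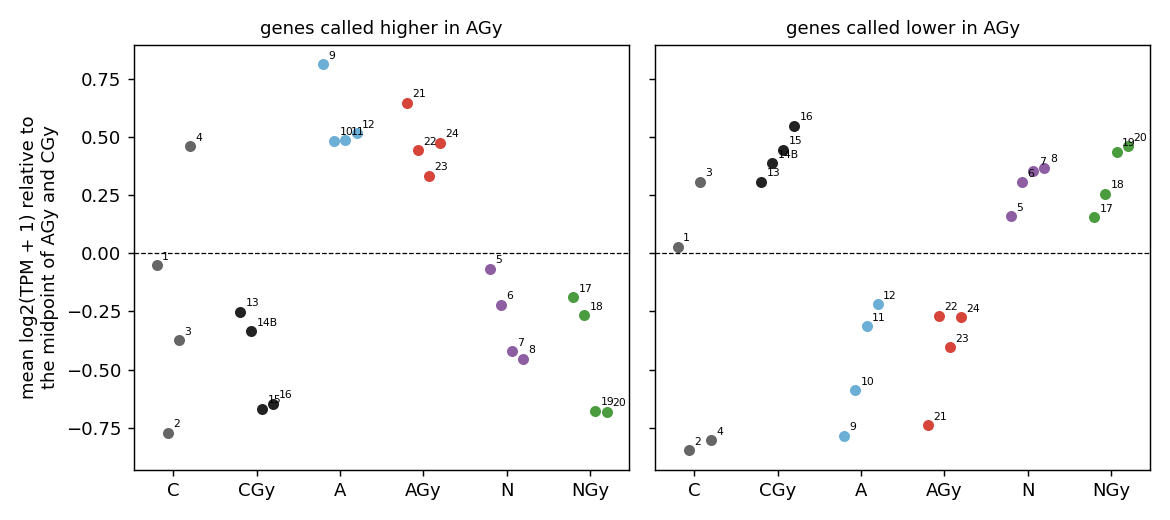
Mean log2(TPM + 1) of the 334 higher genes (left) and the 298 lower genes (right) in each of the 24 samples, relative to the midpoint of the AGy and CGy means; numbers beside the points are sample names without MO. The genes were chosen on AGy and CGy, so the separation of these groups is given by the choice; A samples lie on the AGy side in both panels, N and NGy samples on the CGy side, and C samples on both sides.

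The other 4 groups did not take part in the choice of these genes. On the scale of mean log2 distance from the midpoint of AGy and CGy, the A samples lay at 0.48 to 0.81 for the higher genes and at -0.78 to -0.22 for the lower genes, on the side of AGy. N samples lay at -0.45 to -0.07 and 0.16 to 0.37, and NGy samples at -0.68 to -0.19 and 0.16 to 0.46, on the side of CGy. The C samples did not lie together. MO1 was near the midpoint at -0.05 for the higher and 0.03 for the lower genes, MO3 was on the side of CGy at -0.37 and 0.31, and MO4 was on the side of AGy at 0.46 and -0.80. MO2 was low for both sets, at -0.77 and -0.85.

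The number of calls depended on single samples. Leaving out each of the 8 samples in turn gave between 268 and 636 calls. Without MO16 there were 268, without MO15 there were 301 and without MO21 there were 411, which are the samples farthest from the other group. Without any one of the other 5 samples the count was 469 to 636. Of the 632 genes, 216 were called with each of the 8 samples left out, 124 of them higher and 92 lower. None was called in the opposite direction in these fits or in the other settings tried. All of these fits reuse the same samples, so a reversal was unlikely from the start and its absence is not evidence.

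**Figure D4:**
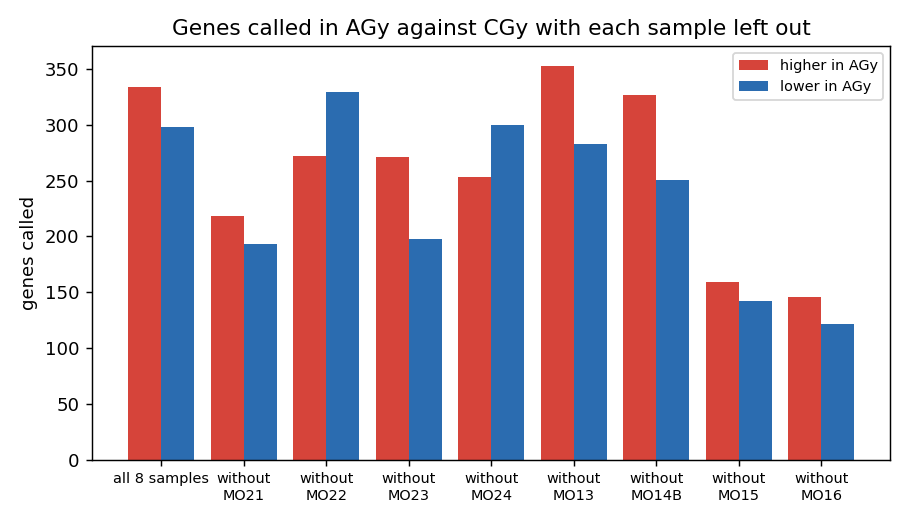
Number of genes called higher (red) and lower (blue) in AGy with all 8 samples and with each sample left out. The bars fall from 334 and 298 genes to 146 and 122 without MO16 and to 159 and 142 without MO15.

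The groups also differed in a property of the tables. The listed genes summed to 643344 to 655289 TPM in AGy and to 622007 to 630861 TPM in MO13, MO15 and MO16, whereas MO14B summed to 649751 TPM. Over the 24 samples, 9 were at 643344 or above (AGy, NGy and MO14B) and the others at 630861 or below. Without MO14B, 578 genes were called. With every sample scaled to the same sum, 669 genes were called, 323 higher and 346 lower. Only 1 CGy sample had a high sum, so no comparison within samples of like sums could be made, and the part of this difference in the calls was not tested beyond the common scaling. The numbers in the sample titles, whose meaning is not stated, were all lower in AGy than in CGy, so this numbering and the ascorbic acid cannot be told apart. The same holds for most of the other groups, since the numbers of A were also lower than those of N, NGy and 3 of the 4 C samples, while 1 C sample had a number below all of A and AGy. The lowest numbers of C, A and AGy were 25, 26 and 32, each far below the other numbers of its group. Which columns these samples are was not given. The positions of A on the AGy side and of N and NGy on the CGy side follow the numbering as well as the treatment.

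The batch-corrected table gave more calls, 892 of 9835 genes (9.07%), with 460 higher and 432 lower. It kept 331 of the 334 higher and all 298 lower genes in the same direction. The correction left the mean of every group in place, to within 3.8e-09 on the log2 scale, and removed 30.1% of the sum of squares within AGy and 48.8% of that within CGy. The median SD of a gene on the log2 scale went from 0.169 to 0.119 in AGy and from 0.144 to 0.0925 in CGy. Because group means stayed fixed while the spread around them shrank, p-values from the corrected table do not reflect the spread between the samples as sequenced.

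Ascorbic acid without radiation was compared in samples that AGy and CGy do not share. Between 4 A and 3 C samples, 2 of 9850 tested genes (0.0203%) were called, 1 higher and 1 lower in A, and neither was called between AGy and CGy. An unadjusted p under 0.05 was reached by 1194 genes (limma). The batch-corrected table gave 240 calls for this comparison.

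The genes called between AGy and CGy nevertheless leaned the same way in A, a group whose title numbers, like those of AGy, were lower than those of most C samples. Of the 334 higher genes, 323 (96.7%) were also higher in A than in C, with a median log2 difference of 0.55, and of the 298 lower genes, 282 (94.6%) were also lower, with a median of -0.31. Over all tested genes the sign was the same for 64.0%, with a median A minus C of 0.03. A change of at least 1.5-fold in the same direction was seen in A for 151 of the higher genes and 34 of the lower genes. The matching share of all tested genes is not given here. None of the higher or lower genes was called in A against C. An unadjusted p under 0.05 in the same direction (limma) was reached by 167 of the 326 higher genes tested there and by 17 of the 287 lower genes tested. Over all 9850 genes tested there it was reached by 1194 in either direction. The count in a single direction over all genes is not given. Whether the 167 higher or the 17 lower genes stand out from all genes therefore cannot be read from these counts. Across the 9847 genes the differences correlated with a Pearson r of 0.55, which is a description, since genes are not independent replicates.

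The size of the lean depended on which C samples were used. Without MO4 the medians of A minus C were 0.76 for the higher and -0.62 for the lower genes, with 323 and 292 of the same sign. With MO2 added the medians were 0.78 and -0.16, and 206 of the 298 lower genes had the same sign. MO2 moved all genes and not only the called ones. Over all genes tested in A against C, the median A minus C was 0.03 without MO2 and 0.20 with it. The median level of a gene was 1.32 TPM in MO2, against 2.91, 2.86 and 2.63 TPM in MO1, MO3 and MO4. The part of these 2 samples in the small number of calls between A and C was not tested beyond leaving them out and adding them.

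**Figure D5:**
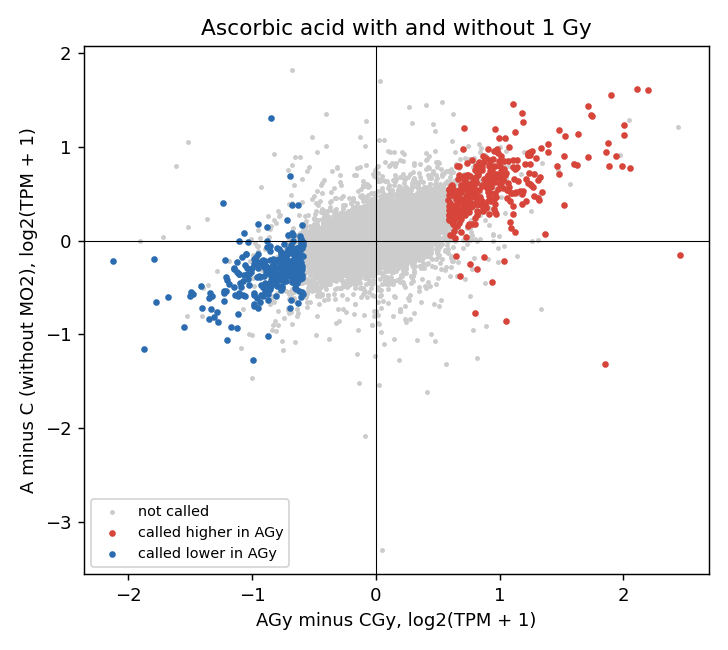
Log2 difference A minus C against log2 difference AGy minus CGy for the 9847 tested genes, with called genes in red (higher) and blue (lower). Most red points lie in the upper right and most blue points in the lower left part of the plot, 323 of 334 and 282 of 298 genes.

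Whether ascorbic acid acted differently with and without 1 Gy was tested as an interaction over AGy, CGy, A and C. One of 10038 genes (0.00996%) passed an adjusted p of at most 0.05, and 754 reached an unadjusted p under 0.05 (limma). That gene was among those called higher in AGy. It held 4.99, 5.53, 4.01 and 4.43 TPM in MO21 to MO24 and 2.12, 2.85, 2.17 and 2.04 TPM in MO13, MO14B, MO15 and MO16, without overlap. In the absence of radiation the order was the opposite, with 1.07, 1.58, 1.70 and 1.67 TPM in MO9 to MO12 of A and 3.08, 4.39 and 2.52 TPM in MO1, MO3 and MO4 of C. Its interaction was 1.58 on the log2 scale (adjusted p = 0.0276, limma), and leaving out MO22, MO24, MO13, MO15, MO16, MO1 or any one A sample gave no passing gene at all. Without MO21 a different gene passed and this one did not.

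For the other called genes a difference between the effects was not detectable in the uncorrected values. An unadjusted interaction p under 0.05 was reached by 31 of the 334 higher genes, the passing gene included, and by 50 of the 298 lower genes. Over all 10038 genes it was reached by 754 (limma). The called genes were chosen for a large difference between AGy and CGy, which is a part of the interaction. Their counts therefore depend on the choice and are not evidence of an interaction. The smallest adjusted p among the lower genes was 0.632 (limma). The lack of passing genes does not show that the effects were alike. With the batch-corrected values, 1126 genes passed the same test, 314 with a positive and 812 with a negative interaction. The spread within groups of those values had been reduced as described above.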

How the data were processed

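Neurosphere RNA was sequenced from poly(A)-selected, directional libraries. The authors estimated TPM with Kallisto; the submitters' processing notes also name STAR 2.6.1. The deposited tables are TPM for 24 samples and a batch-corrected version for 23, whose values equal 0.5 times (corrected TPM + 1) and were doubled and reduced by 1, with values below 0 set to 0. Neither table holds comparisons, and 0 sample columns were left unused. Column names match no single sample label. Their groups follow the study's own plots of these sample names, and columns were used as replicates with no numbers. TPM keep no counts, so depth and counting error are unknown.

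limma 3.58.1 in R 4.3.3 (lmFit, eBayes) was run on log2(TPM + 1), with only the groups compared in the fit and no covariates. Genes were kept where 1 of the compared groups (of 4 for the interaction) averaged 1 TPM or more. Since no identifier matched a symbol, only the 2 largest rises and falls were named, among called genes whose groups did not overlap and where a group averaged 5 TPM or more. The fits were also run on simulated data with independent noise and changes larger than the medians of the called genes. That run does not measure power or error at the sizes reported here. Comparisons, lists and alternatives were chosen with earlier results of these data known. Scaling to equal sums was chosen after seeing the data. Figures used matplotlib 3.10.9.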

Additional observations from a re-analysis of the deposited data

Results flagged for a closer look

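Of 40 sets of 4 samples examined, 3 held a value far from the other 3, and chance alone gives about 1 in 20. ENSRNOG00000005101 was at 9.54 TPM in MO12 of A, whereas the other A samples held 0.229 to 0.958 TPM. MO23 had the highest sum of listed TPM in AGy, 655289. The mean log2 level of the 334 genes higher in AGy was 0.81 above the midpoint of AGy and CGy in MO9, against 0.48 to 0.52 in the other A samples.

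In the uncorrected values the effect of ascorbic acid differed with and without 1 Gy for 1 gene, by an interaction of 1.58 on the log2 scale (adjusted p = 0.0276, limma). This call was lost in most fits that left out 1 sample. It was also lost with all 6 groups in one fit, with a mean-variance trend, without the filter and with MO2.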

How the results depend on the processing

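Every setting kept both directions among the genes called between AGy and CGy, and 204 of the 632 genes were called in every setting. Counts were 465 to 892 over the other tables, filters, scalings and fits, 1217 without the fold threshold, and 268 to 636 with 1 sample left out. Between A and C, 2 genes became 69 with all 6 groups in one fit, 240 in the corrected table, 5 with a pseudocount of 0.1, and 0 with MO2 (784 at an unadjusted p under 0.05, limma); leaving out 1 sample gave 2 to 6. The interaction went from 1 gene to 0 with all 6 groups, with a mean-variance trend, without the filter and with MO2, to 3 with a pseudocount of 0.1, to 1126 in the corrected table, and to 0 to 2 with 1 sample left out. The corrected table has less spread within groups by construction. For the other changes the cause was not tested. Of 15 alternatives, 14, 10, 5 and 5 kept the calls of ENSRNOG00000004681, ENSRNOG00000019985, ENSRNOG00000031171 and ENSRNOG00000005101, whose adjusted p (limma) ranged over 0.00252 to 0.0508, 5.14e-05 to 0.0676, 0.000126 to 0.140 and 0.00143 to 0.0979. No paired analysis was possible because the columns carry no replicate number shared between groups.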
